A study of Arabidopsis thaliana with 16 samples.

Results

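The transcripts described here belong to 4 genes of iron handling in Arabidopsis thaliana, a small flowering plant: IRT1 (AT4G19690), FER1 (AT5G01600), BHLH101 (AT5G04150) and PYE (AT3G47640). Each is read by 1 of the 22810 probe sets of the array, a probe set being a group of short probes for 1 transcript. The probe sets of IRT1 (ATH1.254550_at, with the name of the array before the identifier) and FER1 (ATH1.251109_at) were given by their identifiers, and those of BHLH101 and PYE were taken from the platform annotation, which pairs each with that gene alone. The rule that names them contains no measured value, although results of these data were known when it was written.

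IRT1 encodes the membrane transporter that takes up ferrous iron in the outer cell layers of the root, and it also carries zinc (Zn), manganese and other divalent metals. FER1 encodes a plastid ferritin, a protein shell that stores iron, and its transcript is known to accumulate when iron is ample. BHLH101 and PYE are transcription factors of the basic helix-loop-helix family whose transcripts are known to rise under iron deficiency. BHLH101 acts with FIT to raise IRT1, and PYE represses genes of iron storage and distribution. Levels of the 4 transcripts are therefore commonly read as signs of the iron status of a plant.

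The 16 arrays form 8 groups of 2, from a pair of experiments. In the first, wild-type (WT) plants spent 4 weeks in hydroponic culture with control medium and then 3 weeks in Zn-deficient (-Zn) or control medium, and shoots and roots were harvested at 7 weeks of age. In the second, seedlings of the hma2 hma4 double mutant and of the wild type stayed on agar with control medium for 7 days before and 14 days after a transfer, and shoots and roots were harvested at 21 days. HMA2 and HMA4 are ATPase pumps known for exporting Zn into the root xylem, and shoots of plants that lack both are known to receive less Zn. All plants of the second experiment, mutants included, received the control medium. The mutant alleles are not named in the labels, and no label tells whether the 2 arrays of a group came from different plants, so p-values measure a spread between samples that may be technical.

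The tissue labels were checked on markers. Of those listed, 4 of 7 photosynthesis genes and 2 of 12 root genes had a probe set in the annotation used. The summed signal of the 4 photosynthesis genes was 257.4 to 827.6 on root arrays and 36735 to 67898 on shoot arrays. That of the 2 root genes was 16477 to 28331 on root arrays and 75.2 to 5123 on shoot arrays. One of them, BGLU23, read 3361 to 4932 on 21-day shoot arrays, against 63.3 to 990.5 on 7-week shoot arrays. Replicate arrays correlated across probe sets with r from 0.952 to 0.978. The actin 3′/5′ signal ratio, a sign of RNA integrity and labelling, was 1.74 to 8.57 on the 7-week arrays and 17.3 to 30.3 on the 21-day arrays, and -Zn shoot replicate 1 had the 8.57. Background was set at the highest signal of the 3 bacterial Trpn control probe sets, 52.2 units. ZIP9, a Zn transporter gene known to respond to Zn deficiency, served as a check of Zn status. Its log2 change was 5.01 in -Zn shoots (limma adjusted p = 0.000123), 4.21 in -Zn roots (adjusted p = 0.00048), 2.76 in mutant shoots (adjusted p = 0.0313) and 0.18 in mutant roots (adjusted p = 1).

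None of the 4 iron genes rose or fell past the threshold in -Zn shoots, -Zn roots, mutant shoots or mutant roots. In the 7-week experiment 3 of the 4 passed the filter on low signals and were tested, and BHLH101 did not. In the 21-day experiment all 4 were tested. With limma, a linear model fitted over 17059 probe sets with p-values adjusted over all of them, 0 of 3 were called at an adjusted p under 0.05 in -Zn shoots, where 0.92% of all probe sets were. In -Zn roots 0 of 3 were called, against 0.106% of all. In mutant shoots 0 of 4 were called, against 0.299% of all, and in mutant roots 0 of 4, against 0.00586%. The shoot counts include IRT1, which was below background on all 8 shoot arrays and passed the filter through its root signals. Its shoot outcome therefore says nothing about a response. At an unadjusted p under 0.05, PYE in mutant shoots was the only one. Such p-values numbered 2849, 394, 1638 and 629 over all probe sets, in the 4 comparisons in the order given. These were 16.7%, 2.31%, 9.6% and 3.69% of the probe sets tested. The differences between root and shoot responses, and between the Zn and the mutant response, were not called for any gene tested. BHLH101 was tested for the mutant difference between tissues alone, and IRT1 can be read in roots alone. The shares of all probe sets called were 0.0117% (Zn) and 0.0469% (mutant) between tissues, and 0.58% (shoots) and 0.123% (roots) between conditions. The Zn and mutant responses come from separate experiments, so age, culture and the actin ratio cannot be told apart from a difference between them. With 2 arrays a group the intervals below remain wide, and a value that misses the threshold does not show that levels were equal.

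**Figure D1:**
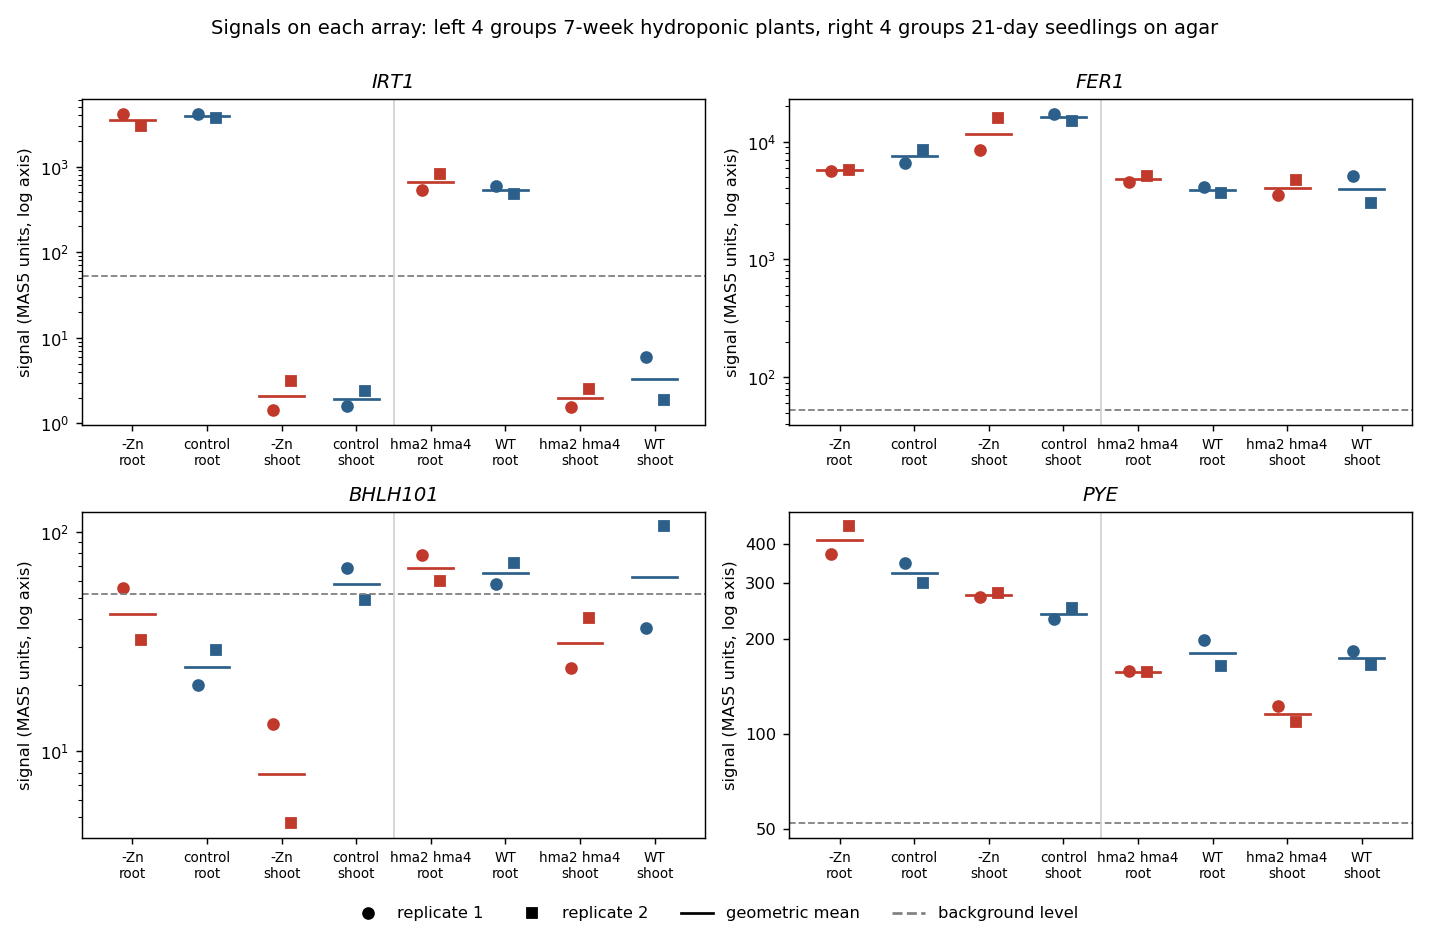
Signals of the 4 genes on each of the 16 arrays in MAS5 signal units on log axes, 1 panel a gene, with circles for replicate 1, squares for replicate 2 and a bar at the geometric mean of each group. Red marks -Zn and hma2 hma4, blue marks control and WT, and the dashed line is the background level of 52.2 units. IRT1 lies above background on the 8 root arrays and below it on the 8 shoot arrays.

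IRT1 was a root transcript in all 4 conditions. Its signals were 4159 and 2971 in -Zn roots, against 4116 and 3654 in control roots. They were 526.5 and 810.8 in hma2 hma4 roots, against 594.6 and 472.6 in WT roots. In both experiments the ranges of the 2 root groups overlapped. On the 8 shoot arrays the signals lay between 1.42 and 5.89, all below background, so no fold is given between shoot groups.

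The log2 change of IRT1 was -0.14 in -Zn roots (SE 0.276, 95% confidence interval -0.77 to 0.49, limma adjusted p = 1). In mutant roots it was 0.30 (SE 0.355, interval -0.49 to 1.08, limma adjusted p = 1). Changes here are of log2(signal + 8), a scale that understates those of dim probe sets. Both signs turned when 1 array was left out: the change was 0.10 without -Zn root replicate 2 and -0.01 without mutant root replicate 2. The difference between the Zn response and the mutant response in roots was -0.44 (SE 0.422, limma adjusted p = 1). In whole roots, fewer cells of a type and less RNA per cell cannot be told apart. The 4 root groups ranked by mean signal as control roots (3885 ± 327, SD, n = 2), -Zn roots (3565 ± 840), hma2 hma4 roots (669 ± 201) and WT roots (534 ± 86.3). Within each experiment the neighbours did not differ beyond their spread.

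Roots exceeded shoots for IRT1 by at least 67.3-fold in -Zn plants and at least 74.3-fold in control plants. They did so by at least 12.5-fold in hma2 hma4 and at least 10.1-fold in WT seedlings. These folds are lower bounds, set against the background level because the shoot signals lay below it. The difference was called in each of the 4 conditions (limma adjusted p = 2.9e-07, 2.17e-07, 7.68e-08 and 1.56e-07). Roots were called higher than shoots for 32.4% of all probe sets in -Zn plants, 35% in control plants, 39.8% in the mutant and 39.5% in the wild type. Root and shoot arrays were scaled to a common mean, and the median of all probe sets was higher in roots by 0.36, 0.35, 0.30 and 0.28 in the same order.

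FER1 was bright on all 16 arrays, from 3037 to 17320 units. Its signals were 8503 and 15814 in -Zn shoots, against 17320 and 14840 in control shoots, and the ranges overlapped. In roots they were 5668 and 5734 under -Zn, against 6580 and 8492 in controls, and both -Zn arrays lay below both control arrays. Such a lower range without overlap was found for 15.1% of all probe sets. The log2 change was -0.47 in -Zn shoots (SE 0.287, interval -1.12 to 0.19, limma adjusted p = 0.46) and -0.39 in -Zn roots (SE 0.287, interval -1.04 to 0.26, limma adjusted p = 1). The shoot value depended on the -Zn arrays: it was -0.02 without -Zn shoot replicate 1, the array with the actin ratio of 8.57, and -0.91 without -Zn shoot replicate 2. The part of that array's RNA quality in the shoot value was not tested beyond leaving the array out.

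In hma2 hma4 shoots FER1 had signals of 3519 and 4695, against 5115 and 3037 in WT shoots, with the mutant arrays inside the range of the wild type. In hma2 hma4 roots the signals were 4513 and 5078, against 4135 and 3636 in WT roots, so both mutant arrays lay above both WT arrays, as for 15.5% of all probe sets. The log2 change was 0.04 in shoots (SE 0.22, interval -0.44 to 0.53, limma adjusted p = 0.976) and 0.30 in roots (SE 0.22, interval -0.18 to 0.79, limma adjusted p = 1). The shoot sign turned without WT shoot replicate 2 (-0.33) or mutant shoot replicate 2 (-0.16). Root response and shoot response did not differ past the threshold for Zn deficiency (difference 0.08, SE 0.406, limma adjusted p = 0.98) or for the mutant (0.26, SE 0.311, adjusted p = 0.964). The Zn response minus the mutant response was -0.51 in shoots (SE 0.403, limma adjusted p = 0.622) and -0.69 in roots (SE 0.403, adjusted p = 1).

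In the 7-week plants FER1 was lower in roots than in shoots, by 1.02 in log2 units under -Zn (SE 0.287, limma adjusted p = 0.0167) and by 1.10 in controls (SE 0.287, adjusted p = 0.0108). Roots were called lower for 18.4% of all probe sets under -Zn and for 19.8% in controls. The -Zn call was lost without -Zn shoot replicate 2 (-0.58, adjusted p = 0.076), -Zn root replicate 1 (-1.02, adjusted p = 0.0702) or -Zn root replicate 2 (-1.03, adjusted p = 0.0648). The control call was lost without control shoot replicate 1 (-0.99, adjusted p = 0.0567) or control root replicate 1 (-0.92, adjusted p = 0.083), and under quantile normalization (-0.58, adjusted p = 0.0577). At 21 days roots minus shoots was 0.24 in the mutant (limma adjusted p = 0.376) and -0.02 in the wild type (adjusted p = 0.937). Ranked by mean signal, the groups ran from control shoots (16080 ± 1753) and -Zn shoots (12158 ± 5170) to control roots (7536 ± 1352) and -Zn roots (5701 ± 46.4), and then the 4 groups of 21-day seedlings between 4795 and 3886. The 2 shoot groups of the 7-week plants overlapped, as did neighbouring groups among the 21-day seedlings.

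BHLH101 was dim: 7 of the 16 arrays exceeded background. In -Zn shoots its signals were 13.3 and 4.69, against 68.8 and 49.2 in control shoots, so both -Zn arrays lay below both control arrays, as for 21% of all probe sets. In -Zn roots they were 55.3 and 32.2, against 20.2 and 29.1 in control roots, so both -Zn arrays lay above both control arrays, as for 17.6% of all probe sets. One -Zn root array and 1 control shoot array exceeded background in this experiment, so most of these values are only known to be low. BHLH101 lay below background on both -Zn shoot arrays, so the fold of control shoots over -Zn shoots is given as at least 1.11. Control shoot replicate 2, at 49.2, was itself below background.

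When the filter on low signals was dropped, the log2 change of BHLH101 was -2.01 in -Zn shoots (SE 0.41, interval -2.96 to -1.06, limma adjusted p = 0.0992 over 22746 probe sets). In -Zn roots it was 0.64 (SE 0.41, interval -0.31 to 1.59, limma adjusted p = 1). Root response minus shoot response was 2.65 (SE 0.58, limma adjusted p = 0.37). The size in shoots depended on the constant added before taking log2, at -2.71 with 1 unit and -0.80 with 58 units. With 1 array left out in turn it lay between -2.38 and -1.64. Roots minus shoots, also without the filter, was 1.62 under -Zn (limma adjusted p = 0.0167), a higher call made for 5522 of 22746 probe sets. In controls it was -1.04 (limma adjusted p = 0.0776). Most of these signals lay below background, so the sizes depend on the units added. At 21 days, with the filter, roots minus shoots was 0.96 in the mutant and 0.03 in the wild type, neither called.

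In hma2 hma4 shoots BHLH101 had signals of 24.1 and 40.5, against 36.5 and 106.2 in WT shoots, and the ranges overlapped. Both mutant shoot arrays lay below background, so the fold of WT shoots over mutant shoots is given as at least 1.19. That bound rests on WT shoot replicate 2, since WT shoot replicate 1 was also below background. In hma2 hma4 roots the signals were 78.6 and 60.1, against 57.9 and 72.5 in WT roots, also overlapping. The log2 change was -0.85 in shoots (SE 0.482, interval -1.92 to 0.21, limma adjusted p = 0.636) and 0.08 in roots (SE 0.482, interval -0.99 to 1.14, limma adjusted p = 1). The shoot value was -0.17 without WT shoot replicate 2, and the root sign turned without WT root replicate 1 (-0.07) or mutant root replicate 1 (-0.10). Ranked by mean signal, each of the 8 groups overlapped with the next, except control roots (24.6 ± 6.28) and -Zn shoots (9.01 ± 6.11) at the low end.

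PYE exceeded background on all 16 arrays, between 109.2 and 453.2 units. Its signals were 270.6 and 278.6 in -Zn shoots, against 230.9 and 250.2 in control shoots. In roots they were 370.6 and 453.2 under -Zn, against 347.9 and 301.2 in controls. In both tissues each -Zn array lay above each control array, a pattern that 19.9% of all probe sets had in shoots and 17.6% in roots.

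In the mutant the order was the opposite. PYE had signals of 122.5 and 109.2 in hma2 hma4 shoots, against 182.5 and 165.4 in WT shoots. In roots they were 157.9 and 157.3 in hma2 hma4, against 197.7 and 163.7 in WT. In both tissues each mutant array lay below each WT array, as for 21.1% of all probe sets in shoots and 17.6% in roots.

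The log2 change of PYE was 0.19 in -Zn shoots (SE 0.245, interval -0.37 to 0.74, limma adjusted p = 0.758) and 0.33 in -Zn roots (SE 0.245, interval -0.22 to 0.89, adjusted p = 1). It was -0.56 in mutant shoots (SE 0.221, interval -1.04 to -0.07, limma adjusted p = 0.437) and -0.18 in mutant roots (SE 0.221, interval -0.67 to 0.31, adjusted p = 1). The value in mutant shoots had an unadjusted p of 0.0293. The Zn response minus the mutant response was 0.74 in shoots (SE 0.294, interval 0.11 to 1.37, limma adjusted p = 0.27) and 0.52 in roots (SE 0.294, adjusted p = 1), neither past the threshold. These signs held under each of the alternative settings and with each array left out in turn, with values of 0.10 to 0.24 in -Zn shoots, 0.19 to 0.48 in -Zn roots, -0.63 to -0.42 in mutant shoots and -0.31 to -0.05 in mutant roots.

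Roots minus shoots for PYE was 0.56 under -Zn (limma adjusted p = 0.0837), 0.42 in controls (adjusted p = 0.178), 0.42 in the mutant (adjusted p = 0.121) and 0.05 in the wild type (adjusted p = 0.864, with the sign turned under quantile normalization and median centring). None of these was called. Ranked by mean signal, the groups ran from -Zn roots (412 ± 58.5) through control roots (325 ± 33.0), -Zn shoots (275 ± 5.67), control shoots (241 ± 13.6), WT roots (181 ± 24.0), WT shoots (174 ± 12.1) and mutant roots (158 ± 0.447) to mutant shoots (116 ± 9.42). Of these neighbours, WT roots and WT shoots had overlapping ranges.

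**Figure D2:**
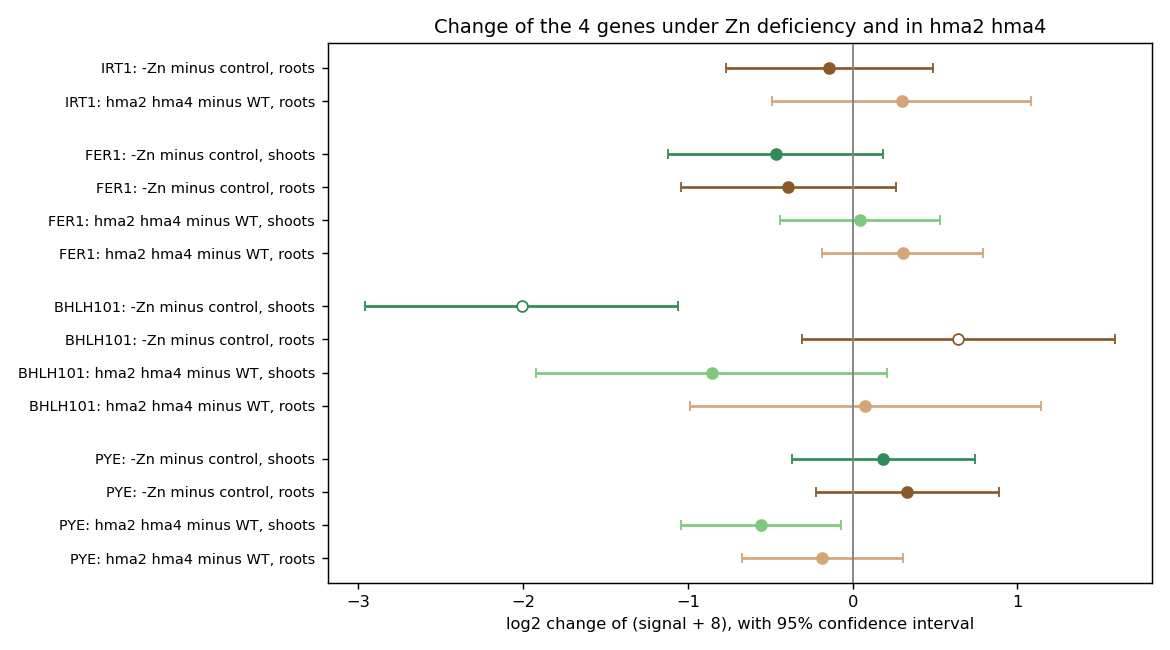
Log2 change of each gene, -Zn minus control and hma2 hma4 minus WT, in shoots and roots, with 95% confidence intervals from limma. Filled points passed the filter on low signals, and the 2 open points are BHLH101 values computed without it, whose size depends on the 8 units added; IRT1 in shoots is left out because it lay below background. The interval of PYE in mutant shoots and the unfiltered one of BHLH101 in -Zn shoots exclude 0, and neither passed the adjusted threshold.

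Levels of the 4 genes were also set side by side between the 2 experiments. FER1 and PYE were higher on each of the 8 arrays of 7-week plants than on any of the 8 arrays of 21-day seedlings, with medians of 8497 and 289.9 units against 4324 and 160.8 units. IRT1 showed the same order among the root arrays, at 2971 to 4159 against 473 to 811 units, and BHLH101 the opposite one, at 20.2 to 55.3 against 57.9 to 78.6 units. Over all 16 arrays 4.54% of probe sets were higher in this way, and over the root arrays 26.1% were higher and 28.6% lower. For BHLH101, -Zn root replicate 1 was the only 7-week root array above background. The fold of WT roots over control roots for BHLH101 is therefore given as at least 1.24. Between the untreated wild types of the 2 experiments, control roots exceeded WT roots 7.32-fold for IRT1 and 1.93-fold for FER1, and control shoots exceeded WT shoots 4.07-fold for FER1. Age, culture in hydroponics or on agar, and the actin ratio all differed between the experiments and cannot be told apart, so these values have no test.

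Other genes of the iron pathway were read from 5 lists of 59 loci, covering root uptake, secretion of iron-mobilising compounds, regulators, storage, and transport. Beyond the 4 genes, 12 loci were each paired with a separate probe set by the annotation used: 3 of secretion, 8 regulators and 1 of transport. Of these, 11 passed the filter. None was called in -Zn shoots, -Zn roots, mutant shoots or mutant roots with limma, against 0.92%, 0.106%, 0.299% and 0.00586% of all probe sets. An unadjusted p under 0.05 was found for 2, 2, 2 and 0 of the 11, in the same order. Over all probe sets tested the shares were 16.7%, 2.31%, 9.6% and 3.69%. The median log2 changes of the 11 were -0.02, -0.13, -0.11 and 0.04, beside -0.02, 0.02, -0.04 and -0.01 over all probe sets tested.

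F6'H1, the enzyme that opens the synthesis of the iron-mobilising coumarins, stood apart in shoots. Its signals were 2002 and 2547 in -Zn shoots, against 16.1 and 278.1 in control shoots, where control replicate 1 lay below background. The log2 change of 4.77 (SE 0.885, interval 2.76 to 6.79) had a limma adjusted p of 0.0521. It was 2.99 without control shoot replicate 1 and 6.56 without control shoot replicate 2. Leaving out either control array takes their disagreement out of the spread, so no call is read from these refits. In hma2 hma4 shoots the signals were 96.4 and 56.2, against 124.2 and 67.3 in WT shoots, which gave a change of -0.29 (limma adjusted p = 0.818). The Zn and mutant responses come from experiments that differed in age, culture and actin ratio. A difference between the responses cannot be told apart from these. In the fit of all 16 arrays the Zn response in shoots exceeded the mutant response by 5.06 (limma adjusted p = 0.0495), a call made for 0.399% of all probe sets in this direction. That call was lost with any 1 of the 4 arrays of mutant and WT shoots left out (adjusted p 0.101 to 0.2), and under quantile normalization, median centring, 1 unit added, no intensity trend or a replicate block (adjusted p 0.0517 to 0.0826). In roots F6'H1 was at 7205 and 8669 under -Zn, against 9382 and 9435 in controls, with a log2 change of -0.25.

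The regulator list also held AT1G47400, whose values differed in sign between the tissues and did not pass the threshold. Its signals were 173.5 and 201.0 in -Zn roots, against 83.3 and 99.0 in controls, so that roots under -Zn stood 0.98 higher in log2 units (SE 0.372, limma adjusted p = 1). In shoots they were 154.1 and 88.2 under -Zn, against 288.2 and 160.5 in controls, a change of -0.84 (SE 0.372, limma adjusted p = 0.303). AT3G12900, of the secretion list, had signals of 577.2 and 667.3 in -Zn roots, against 1393 and 845.8 in control roots, a change of -0.80 (SE 0.326, limma adjusted p = 1). AT3G58060, of the transport list, was below the filter, with signals of 35.9 and 43.9 in -Zn roots, against 151.5 and 110.6 in control roots. It lay below background on both -Zn root arrays, so the fold of control roots over -Zn roots is given as at least 2.48 (limma adjusted p = 0.919 without the filter).

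BHLH121, a basic helix-loop-helix factor that acts upstream in the iron deficiency response, had signals of 848.8 and 920.3 in hma2 hma4 shoots, against 668.5 and 649.9 in WT shoots. Its log2 change of 0.42 (SE 0.144, limma adjusted p = 0.343) had the lowest adjusted p of the 11 in mutant shoots. The related factors ILR3, BHLH104, BHLH115 and BHLH34 had log2 changes between -0.39 and 0.35 in the 4 comparisons. AT1G74770, AT1G18910 and BGLU42, a beta-glucosidase, ranged from -0.35 to 0.67.

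**Figure D3:**
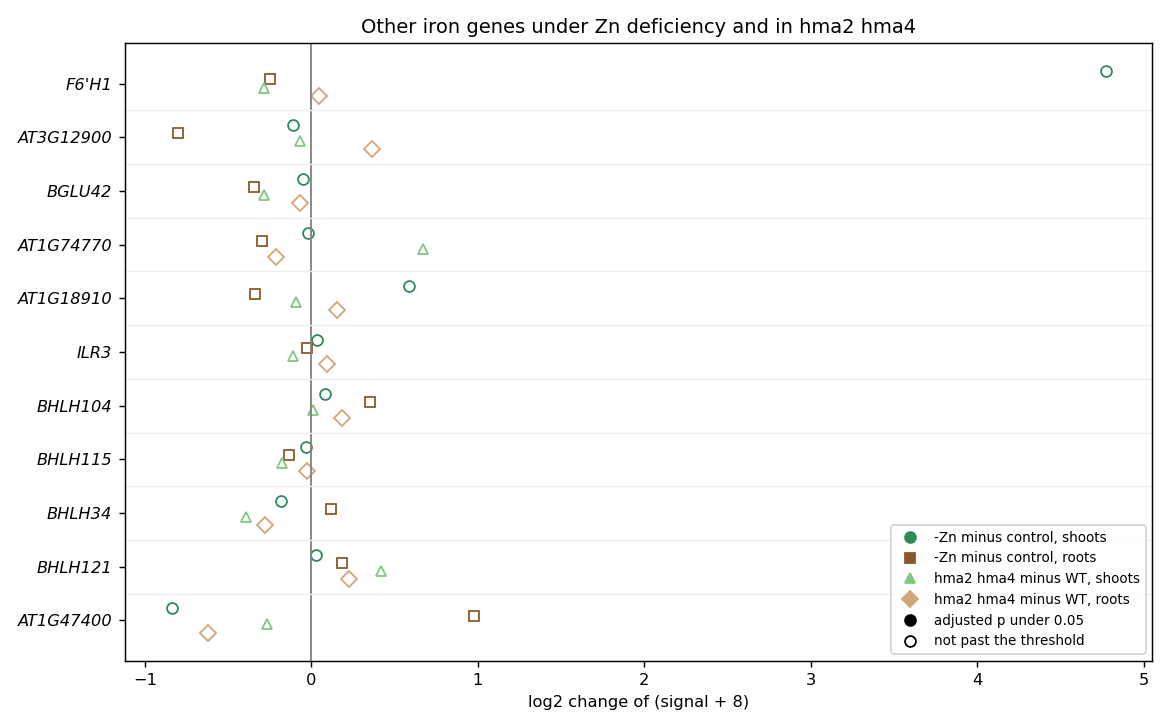
Log2 change of the 11 tested iron genes beyond the 4, -Zn minus control and hma2 hma4 minus WT, in shoots and roots. Filled symbols would mark a limma adjusted p under 0.05, and there is none; F6'H1 in -Zn shoots, at 4.77, lies farthest from 0.

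Between tissues some of the same 11 genes differed. Roots were called higher than shoots for 4, 5, 8 and 7 of them in -Zn plants, control plants, the mutant and the wild type. Over all probe sets the shares were 32.4%, 35%, 39.8% and 39.5%. Lower calls numbered 0, 1, 1 and 1, beside 18.4%, 19.8%, 21.6% and 21.6% of all probe sets. Whether the 11 genes departed from these shares was not tested. AT1G18910 had signals of 1129 and 1159 in -Zn roots, against 94.7 and 74.3 in -Zn shoots, a log2 difference of 3.65 (limma adjusted p = 8.34e-06). AT1G74770 had signals of 1786 and 1757 in -Zn roots, against 65.7 and 95.5 in -Zn shoots, a difference of 4.35 (limma adjusted p = 8.25e-06). Its second, dimmer probe set also had higher signals in roots, at 84.2 to 276.8, than in shoots, at 1 to 3.77. BHLH115 was higher in roots by 1.73 under -Zn, 1.83 in controls, 1.37 in the mutant and 1.22 in the wild type, called each time. F6'H1 was called higher in control, mutant and WT roots (6.83, 6.14 and 5.81) and not in -Zn roots (1.80, limma adjusted p = 0.12). Its signals under -Zn were 7205 and 8669 in roots, against 2002 and 2547 in shoots. The spread used in the -Zn test also draws on the control shoot arrays, which lay far apart for F6'H1. Root response minus shoot response compares the tissue difference under -Zn with that in controls. It was called for none of the 11 genes (lowest limma adjusted p 0.339), against 0.0117% of all probe sets.

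AT1G47400 was called lower in control roots than in control shoots (-1.18, limma adjusted p = 0.0251), while under -Zn the difference was 0.64 (adjusted p = 0.179). The change of this tissue difference under -Zn was not called, as for the other listed genes tested. BHLH121 was called lower in roots in the mutant (-1.16, limma adjusted p = 3.63e-05) and in the wild type (-0.96, adjusted p = 0.00015) at 21 days. In the 7-week plants its differences were 0.73 under -Zn and 0.57 in controls, not called. Whether the tissue difference itself differed between the experiments was not tested.

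**Figure D4:**
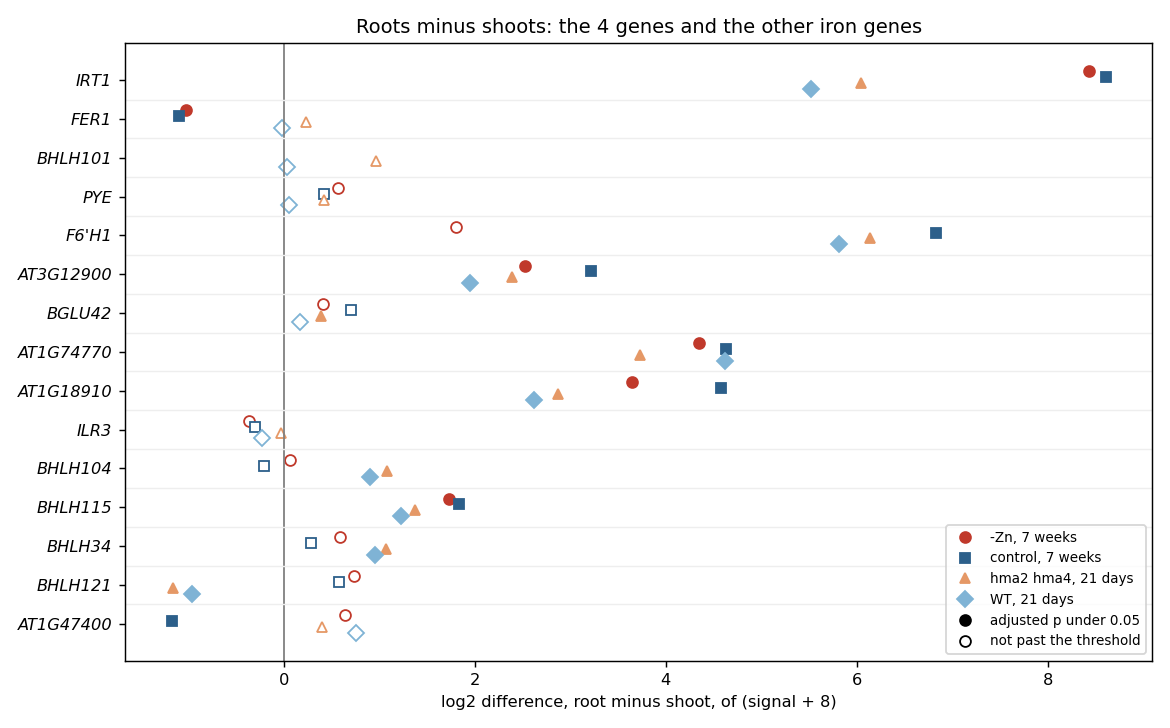
Log2 difference, roots minus shoots, of the 4 genes and of the 11 other tested iron genes in -Zn, control, hma2 hma4 and WT plants, filled where the limma adjusted p was under 0.05. BHLH101 has no points for the 7-week plants, where it did not pass the filter on low signals. IRT1 lies above 0 and filled in all 4 conditions, FER1 lies below 0 in the 7-week plants, and values for genes below background in shoots (IRT1 among them) depend on the 8 units added, so that they have no order among themselves.

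The genes whose levels ran most like each of the 4 were found among named probe sets, 5816 to 5817 of them, by Pearson's r over the 8 group means of log2(signal + 8). These group means share tissues, experiments and scaling, so the values are a description. For IRT1 they were AT3G13760 (r = 0.999), AT1G47670, AT5G19970, AT4G35380 and AT1G72220 (r = 0.997), all high in roots. For FER1 they were AT5G20700 (r = 0.984), AT3G55820, AT4G35220, AT5G14700 and AT1G31300 (r = 0.974). AT5G20700 averaged 4740 units in -Zn shoots, against 7794 in control shoots, and 941.4 in hma2 hma4 shoots, against 1101 in WT shoots.

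For PYE the genes were AT4G29780 (r = 0.992), AT2G36220, AT1G11050, AT5G52070 and AT5G18370 (r = 0.96). AT4G29780 averaged 324.9 units in -Zn shoots, against 266.2 in control shoots, and 103.2 in hma2 hma4 shoots, against 153.6 in WT shoots. For BHLH101, whose signals were mostly below background, r was lower: AT1G65900 (r = 0.921), HTB1, AT5G48900, AT3G15720 and AT3G10120 (r = 0.863).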

How the data were processed

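Total RNA of shoots and roots was labelled with biotin and hybridised to 16 one-colour Affymetrix arrays, per the labels' protocols. The authors deposited MAS5 signals as log2 values, the algorithm being named in the submitters' processing notes; the MAS5 version is not given in the sources used here. From the values, a trimmed mean of 500 is common to the arrays. Each value was raised back to a signal, a constant of 8 units, equal to the 10th percentile of all signals, was added, and the sum was put on a log2 scale. The 64 control probe sets were left out, and a filter at the 25th percentile of the mean signal in each fit left 17059. The linear models were those of limma 3.58.1 under R 4.3.3 (lmFit and eBayes, trend on intensity), 1 fit for each experiment of 8 arrays and 1 fit of all 16 arrays for differences between the Zn and the mutant response. The Benjamini-Hochberg adjustment was made over all probe sets tested, at a threshold of 0.05. The fit was tested on simulated data.

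A fold against a group below background on both arrays is given as a lower bound against the background level. Of the probe sets, 13513 are paired with 1 gene in the platform annotation, 503 with several and 8794 are not listed there, among them those of IRT1 and FER1. Loci and names were matched to the RefSeq table of TAIR10.1. The table of values has no coordinates, so none are given. Listed genes without a symbol there are called by their locus. AT1G74770 has 2 probe sets and the brighter was used. The named genes are the 4, the listed iron genes, for each of the 4 the 5 most alike genes, and ZIP9. The genes and lists were chosen with earlier results of these data known.

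No label ties a replicate number to a batch, so the numbers were not used to pair samples in the main fit. Over probe sets, the deviations of same-numbered arrays correlated with r from -0.115 to 0.165 between groups of 7-week plants. Between groups of seedlings r ranged from -0.0247 to 0.18. Such values do not exclude an effect shared by arrays of the same number. Alternatives were quantile normalization, median centring, 1 or 58 units added, no filter or one at the 50th percentile, no intensity trend, a replicate block, other arrays in the fit, and each array left out. The number of arrays limits the precision of every value.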

Additional observations from a re-analysis of the deposited data

How the results depend on the processing

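For the 4 genes, 480 of 512 refits of 36 values kept the sign and the side of the threshold, 24 turned the sign, 6 lost a call and 2 gained one. With 1 array left out, IRT1 ranged from -0.38 to 0.10 in -Zn roots and from -0.01 to 0.61 in mutant roots, FER1 from -0.33 to 0.42 in mutant shoots, and BHLH101 from -0.10 to 0.25 in mutant roots. Roots minus shoots of FER1 ranged from -1.28 to -0.92 in controls and was -0.58 under quantile normalization (limma adjusted p = 0.0577), and it ranged from -1.47 to -0.58 under -Zn. Roots minus shoots of PYE passed under -Zn in 1 fit of all 16 arrays (0.56, adjusted p = 0.0302) and in the mutant without the intensity trend (0.42, adjusted p = 0.0471). In WT seedlings roots minus shoots turned sign under quantile normalization for FER1 (0.17), BHLH101 (-0.10) and PYE (-0.20), under median centring for BHLH101 (-0.18) and PYE (-0.18), and with 58 units added for BHLH101 (-0.019). With 1 array left out it ranged from -0.40 to 0.35 for FER1, from -0.65 to 0.71 for BHLH101 and from -0.082 to 0.18 for PYE. In the mutant FER1 was -0.046 under median centring. Root response minus shoot response of FER1 was -0.13 for Zn under quantile normalization and ranged from -0.37 to 0.52 with 1 array left out, and from -0.12 to 0.63 for the mutant. The cause was not tested.

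The number of other iron genes called in -Zn shoots was 1 with 58 units added, a filter at the 50th percentile, a replicate block or 1 fit of all 16 arrays. A replicate block gave 281, 23, 68 and 2 called probe sets in -Zn shoots, -Zn roots, mutant shoots and mutant roots, against 157, 18, 51 and 1 without it, and changed no call of the 4 genes. Crossing the numbers of control and -Zn roots, in a fit of those 4 arrays added after the data were seen, gave 18 calls. The fit gave 9 with the numbers as labelled and 19 without a block. This pair of groups had the lowest correlation of deviations, -0.115, so the counts do not settle whether numbers mark a shared batch. Over the other settings the counts ranged from 16 to 1440, 16 to 33, 12 to 70 and 0 to 6, and with 1 array left out from 17 to 331, 12 to 29, 15 to 179 and 0 to 6. Signals below background limit what is known of BHLH101, and of IRT1 in shoots.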
